A study of Mus musculus with 18 samples.

Results

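The enzymes and accessory proteins that make cholesterol and fatty acids were followed in skeletal muscle of mice labelled as knockouts of Site-1 Protease, or S1P, the product of Mbtps1. The members were chosen by name, as known steps of the pathways, with earlier results of these data known. They comprise 19 sterol genes and 19 fatty acid genes. All 38 were found among the 41388 features of the deposited counts, and all 38 passed the filter on low counts in every comparison. Libraries of ribosome-depleted total RNA came from the soleus, a small calf muscle rich in slow fibres, and from the gastrocnemius, a larger and mainly fast calf muscle. Soleus libraries labelled knockout (numbers 35, 39, 40 and 42) were set against soleus controls (34, 36, 37, 38 and 41). Gastrocnemius libraries labelled knockout (2, 6, 7 and 9) were set against gastrocnemius controls (1, 3, 4, 5 and 8). All mice were 12 weeks old, carried the floxed Site-1 Protease allele, ate standard chow and were fasted for 4 h before harvest. Those labelled knockout carried HSACre in addition, a Cre recombinase driven in muscle fibres by the human skeletal actin promoter, so that other cells of the tissue would keep the gene. No library carries Cre without the floxed allele, so loss of S1P and an effect of Cre cannot be told apart. No label says that libraries are from separate mice, and p-values otherwise measure only the spread between these samples.

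S1P cuts the sterol regulatory element-binding proteins (SREBPs) in the Golgi, after their escort SCAP has carried them there from the endoplasmic reticulum, and a second protease then frees their transcription factor domain. SREBP2 is best known for switching on the genes of cholesterol synthesis, and SREBP1c those of fatty acid synthesis and desaturation. Muscle makes little fat compared with liver or adipose tissue, and in it malonyl-CoA from the carboxylase ACC2 (gene Acacb) is known as a brake on the entry of fatty acids into mitochondria.

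Across the members, few differences between libraries labelled knockout and controls were called. In the gastrocnemius, 1 of 19 sterol genes was called, lower, the ketoreductase gene Hsd17b7. Of the fatty acid genes 1 of 19 was called, also lower, the malic enzyme gene Me1. Over all genes tested there, 3.78% were called. In the soleus, 0 of 19 and 0 of 19 were called, where 0.0553% of all genes tested were. More members were called between the muscles, where 49.3% of all genes tested were called in control mice. Me1 and Hsd17b7 were lower in soleus than in gastrocnemius, and Mvd, Acss2, Acaca and Agpat2 higher.

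The promoters of the members that moved most, beside that of Hmgcs1, an SREBP target known from mouse, are shown because SREBPs are known to act by binding near the starts of their target genes. They are RefSeq windows on GRCm38.p6 that run from 250 bases before to 50 bases after a transcript start, 5′ to 3′ on the strand of the gene. Capitals mark a match to the sterol response element consensus TCACNCCAC or to CCAAT, the box bound by NF-Y, a factor that works beside SREBP, on either strand (CCAAT reads ATTGG on the other strand).
Hmgcs1 (chr13:119690101-119690400, plus strand): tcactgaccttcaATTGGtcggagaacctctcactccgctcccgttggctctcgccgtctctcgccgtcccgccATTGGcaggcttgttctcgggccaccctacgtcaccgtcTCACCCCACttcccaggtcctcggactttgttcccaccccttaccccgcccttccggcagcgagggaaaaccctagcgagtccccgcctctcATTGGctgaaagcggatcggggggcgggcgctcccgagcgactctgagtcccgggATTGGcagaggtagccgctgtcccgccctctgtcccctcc
Hsd17b7 (chr1:169969156-169969455, minus strand): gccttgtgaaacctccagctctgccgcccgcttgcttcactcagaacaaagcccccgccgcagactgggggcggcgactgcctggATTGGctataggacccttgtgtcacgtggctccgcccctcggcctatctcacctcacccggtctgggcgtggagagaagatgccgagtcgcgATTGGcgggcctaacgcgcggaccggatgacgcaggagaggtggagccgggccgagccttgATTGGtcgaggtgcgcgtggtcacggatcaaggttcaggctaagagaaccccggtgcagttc
Mvd (chr8:122443373-122443672, minus strand): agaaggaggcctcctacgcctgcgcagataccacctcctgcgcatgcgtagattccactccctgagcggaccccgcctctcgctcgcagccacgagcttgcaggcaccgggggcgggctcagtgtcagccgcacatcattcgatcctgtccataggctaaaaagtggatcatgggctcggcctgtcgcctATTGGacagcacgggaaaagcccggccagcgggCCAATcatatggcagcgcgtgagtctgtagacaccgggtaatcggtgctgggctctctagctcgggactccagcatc
Me1 (chr9:86695865-86696164, minus strand): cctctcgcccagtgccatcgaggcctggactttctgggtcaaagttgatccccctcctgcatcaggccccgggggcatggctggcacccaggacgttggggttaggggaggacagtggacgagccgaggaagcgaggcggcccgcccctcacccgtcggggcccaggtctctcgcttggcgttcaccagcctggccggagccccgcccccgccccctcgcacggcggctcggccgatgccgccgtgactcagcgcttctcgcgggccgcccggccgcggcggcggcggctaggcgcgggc
Acss2 (chr2:155517793-155518092, plus strand): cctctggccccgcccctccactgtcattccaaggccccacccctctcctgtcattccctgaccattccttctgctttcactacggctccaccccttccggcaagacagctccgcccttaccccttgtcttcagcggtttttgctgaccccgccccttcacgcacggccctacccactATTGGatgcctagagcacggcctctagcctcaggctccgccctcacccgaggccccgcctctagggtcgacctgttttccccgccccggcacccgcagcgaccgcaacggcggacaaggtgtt

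The window of Hmgcs1 held the sterol response element consensus, starting 137 bases before the transcript start, and 4 CCAAT boxes. Those of Hsd17b7 and Mvd held no match to the consensus but 3 and 2 CCAAT boxes. The Me1 window shown held neither motif, the other of its 2 RefSeq windows held 1 CCAAT box, and that of Acss2 held 1 CCAAT box. RefSeq windows were matched for 31 of 38 members, 15 sterol and 16 fatty acid genes. None was matched for Fdft1, Sqle, Fdps, Stard4, Scd1, Scd2 and Fads1. The consensus occurred in 1 of the 15 sterol genes and 0 of the 16 fatty acid genes, and in 1.44% of the 27025 genes with a window. Other forms of the element were not searched, so these counts do not show that the members lack one. CCAAT occurred in 14 of 15 sterol genes (93.3%) and 10 of 16 fatty acid genes (62.5%), against 41.1% of all genes with a window. The GC box GGGCGG, bound by Sp1, occurred in 14 of 15 sterol genes (93.3%) and 9 of 16 fatty acid genes (56.2%), against 38.2% of all. The 3 motifs were searched apart on both strands, so matches of different motifs may overlap, and a match describes letters only.

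Library totals ran from 39.0 to 78.2 M counts. Levels are CPM, counts scaled to TMM-adjusted library sizes. Mbtps1 was at 36.3, 31.0, 36.3 and 34.5 CPM in soleus libraries labelled knockout and 31.7, 33.2, 30.5, 31.9 and 34.4 CPM in soleus controls. In the gastrocnemius it was at 35.9, 34.7, 42.8 and 37.0 CPM in libraries labelled knockout and 33.1, 34.9, 29.7, 30.1 and 29.6 CPM in controls. It was thus not lower with the label (log2 fold change 0.10, adjusted p = 0.754, in the soleus and 0.25, adjusted p = 0.0945, in the gastrocnemius). Which exon was deleted is not stated in the labels, and whole-gene counts do not resolve an exon, so the genotype rests on the labels. Slow fibre markers were called higher in soleus than in gastrocnemius controls for 5 of 5 genes, and fast fibre markers lower for 4 of 5. Of all 18494 genes tested in that comparison, 27.4% were called higher and 21.9% lower. Markers of adipocytes were present in every library, with at least 9 of 10 detected and a summed level of 179 to 214 CPM in soleus libraries labelled knockout, 189.5 to 323 CPM in soleus controls, 146 to 205 CPM in gastrocnemius libraries labelled knockout and 147 to 236 CPM in gastrocnemius controls. In whole muscle, fewer cells of a type and less RNA per cell cannot be told apart. The 3 hepatocyte markers together stayed at or under 0.846 CPM.

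The members spanned a wide range of levels. Per kilobase of exon, the 3 highest in gastrocnemius controls were Acacb at 57.9, Me1 at 42.6 and Gpam, the mitochondrial acyltransferase that starts glycerolipid synthesis, at 34.7 CPM per kilobase. In soleus controls Acacb at 56.2 and Gpam at 54.0 led, and Me1 was at 10.5 CPM per kilobase. The stearoyl-CoA desaturase gene Scd1 stood at 18.1 in soleus controls and 16.2 CPM per kilobase in gastrocnemius controls. Among sterol genes the squalene synthase gene Fdft1 was highest, at 12.2 in soleus controls and 14.3 CPM per kilobase in gastrocnemius controls, followed by Hmgcs1 at 9.31 in soleus controls and 8.57 in gastrocnemius controls. The 4 lowest in gastrocnemius controls were the elongase gene Elovl6, the lanosterol synthase gene Lss, the methyl oxidase gene Msmo1 and the squalene epoxidase gene Sqle, which ran from 0.235 to 0.345 CPM per kilobase. The same 4 ran from 0.143 to 0.411 CPM per kilobase in soleus controls, with the isomerase gene Idi1 at 0.387 and Hsd17b7 at 0.403 among them. Neighbours such as Acacb and Gpam in the soleus, or Msmo1 and Sqle in both muscles, did not differ beyond the spread of their libraries. The lowest count of any member in any library was 29, for Elovl6 in a soleus control. Fdft1 shares exon positions with the opposite-strand gene Ctsb, whose mean count was 510% of its own. Agpat2 does so with the opposite-strand gene Egfl7 (403%) and Acss2 with the opposite-strand gene Gss (31.5%). Tm7sf2 shares exon positions with Vps51 (400%), which lies on the same strand. Whether the counting used strand is not stated, and strand would not separate Tm7sf2 from Vps51. The levels of these 4 genes are therefore uncertain.

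**Figure D1:**
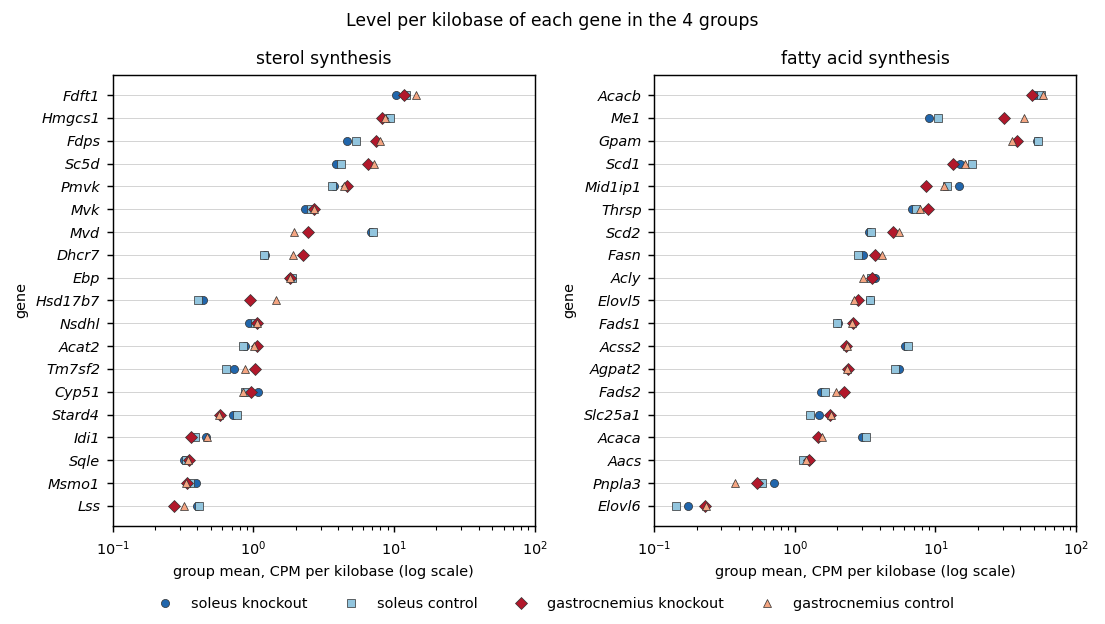
Mean level of each of the 38 members per kilobase of exon (CPM per kilobase, log axis) in the 4 groups, sterol and fatty acid genes apart. Acacb and Gpam are among the 3 highest in every group, and Me1 lies far lower in both soleus groups than in both gastrocnemius groups.

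The design asks what the labelled loss of S1P changes in each muscle, and the sterol list comes first. In the gastrocnemius 1 of 19 sterol genes was called, lower (5.26%), where 3.78% of 16393 genes tested were called, 1.77% higher and 2.01% lower. The median log2 fold change of the 19 was 0.01, with a range of -0.60 to 0.35, beside a median of 0.02 over all genes tested, and 11 of 19 were above 0. Only Hsd17b7 and Fdft1 of the list had an unadjusted p under 0.05, where 3057 of the 16393 genes tested did. In the soleus 0 of 19 were called by edgeR, where 0.0553% of 18087 genes tested were called (0.0387% higher, 0.0166% lower). These backgrounds moved with single libraries: the 619 genes called in the gastrocnemius numbered 206 without control 5 and 1080 without knockout 2, and the 10 in the soleus numbered 3 without control 37 and 66 without knockout 35. In the soleus, unadjusted p fell under 0.05 for Fdft1 and Cyp51, and for 1481 of the 18087 genes tested. DESeq2 and limma voom also called 0 of 19 there. The soleus median was -0.04, with a range of -0.23 to 0.33, beside 0.00 over all genes tested.

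**Figure D2:**
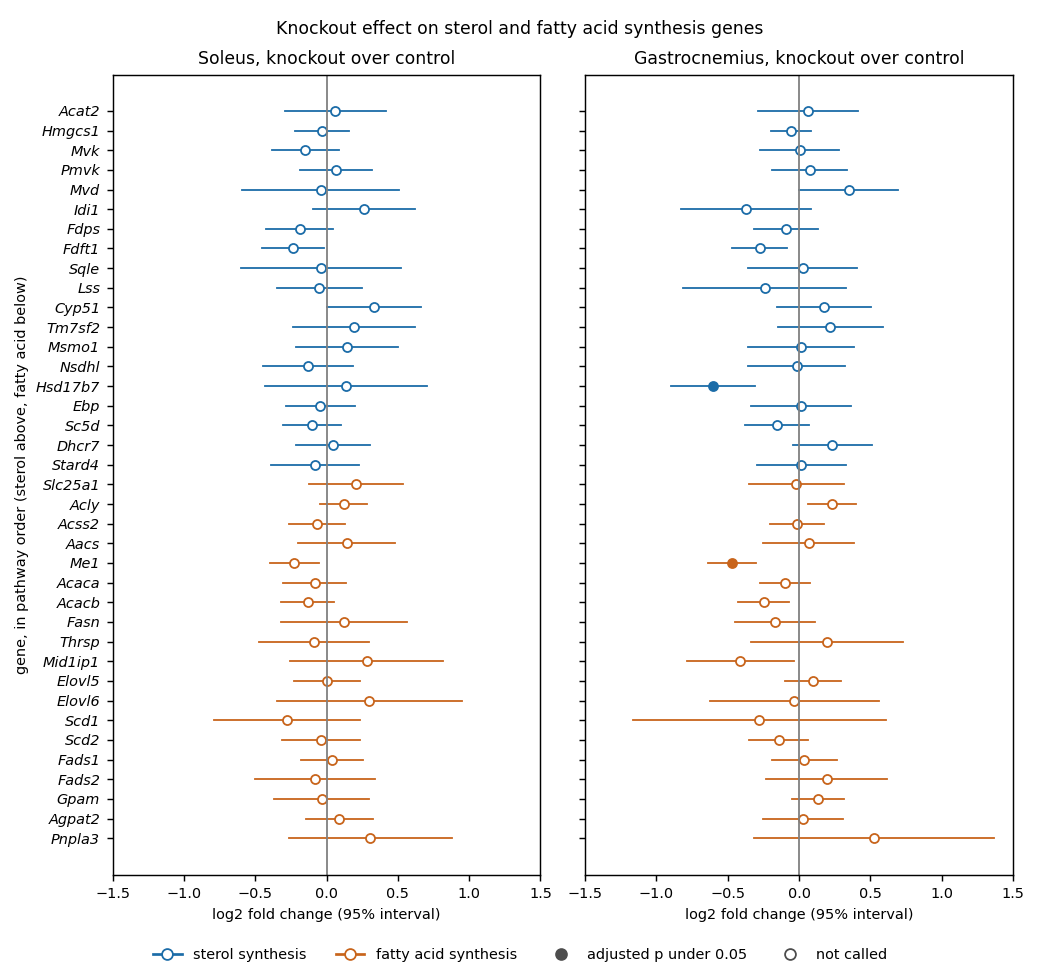
Log2 fold change of each member, labelled knockout over control, with its 95% interval, soleus left and gastrocnemius right; filled points are called at an adjusted p under 0.05. Most intervals cross 0, and only Hsd17b7 (-0.60) and Me1 (-0.47), both in the gastrocnemius, are called.

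Hsd17b7 (ENSMUSG00000026675, GRCm38 chromosome 1, 169949535 to 169969241, minus strand) encodes a reductase that acts while the methyl groups of lanosterol are removed, and that can also reduce the hormone estrone. In the gastrocnemius it stood at 4.83, 3.79, 5.30 and 5.49 CPM in libraries labelled knockout, against 6.60, 8.75, 6.37, 7.46 and 7.71 CPM in controls. All 4 libraries labelled knockout lay below all 5 controls, and the group means were 4.85 ± 0.761 CPM (SD, n = 4) and 7.38 ± 0.952 CPM (SD, n = 5). The log2 fold change was -0.60 (SE 0.14, 95% interval -0.90 to -0.31, adjusted p = 0.0297). That call was lost without control 3 (adjusted p = 0.0522), control 5 (0.0665), control 8 (0.0641) or knockout 6 (0.0934), and in a fit of all 18 libraries (0.113). In the soleus Hsd17b7 was at 1.17, 1.86, 2.95 and 2.96 CPM in libraries labelled knockout and 2.64, 1.54, 1.70, 2.17 and 2.24 CPM in controls. These groups overlapped, and the log2 fold change was 0.14 (95% interval -0.43 to 0.70, adjusted p = 0.944). The difference of the effects, soleus minus gastrocnemius, was 0.73 (unadjusted p = 0.0235, adjusted p = 0.826).

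The entry to the pathway is held by Hmgcs1, which joins acetyl-CoA to acetoacetyl-CoA. Gastrocnemius libraries labelled knockout had 26.1, 26.7, 27.1 and 26.7 CPM of Hmgcs1, against 29.7, 26.6, 26.0, 29.1 and 27.1 CPM in controls. The groups overlapped almost wholly, with means of 26.6 ± 0.420 CPM (SD, n = 4) and 27.7 ± 1.61 CPM (SD, n = 5). The log2 fold change was -0.06 (95% interval -0.20 to 0.09, adjusted p = 0.722). In the soleus its level was 29.2, 32.0, 30.1 and 26.0 CPM in libraries labelled knockout and 27.5, 27.5, 33.1, 33.9 and 28.5 CPM in controls. The log2 fold change was -0.03 (95% interval -0.22 to 0.16, adjusted p = 0.958), again with overlapping groups. Acat2, the thiolase one step before, had log2 fold changes of 0.06 in the soleus and 0.07 in the gastrocnemius and was not called.

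From mevalonate to farnesyl diphosphate, the kinases Mvk and Pmvk, the decarboxylase Mvd, the isomerase Idi1 and the synthase Fdps had log2 fold changes of -0.19 to 0.26 in the soleus and -0.37 to 0.35 in the gastrocnemius, and 0 of 5 were called in either muscle. Idi1 stood at the 2 ends of these ranges, and the difference of its effects was 0.63 (unadjusted p = 0.0211, adjusted p = 0.799).

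Fdft1, which commits farnesyl diphosphate to sterols, was lower on average in both muscles but passed the adjusted threshold in neither. Gastrocnemius libraries labelled knockout had 29.9, 35.1, 31.3 and 38.6 CPM, against 38.6, 36.2, 43.2, 45.9 and 40.3 CPM in controls. The 2 groups overlapped through knockout 9, and the log2 fold change was -0.27 (SE 0.09, 95% interval -0.47 to -0.08, adjusted p = 0.106). Soleus libraries labelled knockout had 31.9, 35.7, 24.9 and 25.5 CPM, against 33.8, 34.0, 37.6, 37.0 and 32.0 CPM in controls, with a log2 fold change of -0.23 (SE 0.10, 95% interval -0.45 to -0.02, adjusted p = 0.585). Here knockouts 40 and 42 were low while 35 and 39 lay among or just below the controls. Ctsb overlaps Fdft1 with more reads, and its part in these values was not tested.

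Squalene epoxidase (Sqle), a rate-limiting step after Fdft1, had 1.70, 2.02, 1.85 and 2.20 CPM in gastrocnemius libraries labelled knockout and 2.32, 1.93, 1.86, 1.62 and 1.83 CPM in controls. Its soleus levels were 0.867, 1.80, 1.86 and 2.54 CPM in libraries labelled knockout and 2.15, 1.44, 2.14, 1.91 and 1.53 CPM in controls. The groups overlapped in both muscles, with log2 fold changes of -0.04 (95% interval -0.60 to 0.52, adjusted p = 0.983) in the soleus and 0.02 (-0.36 to 0.41, adjusted p = 0.965) in the gastrocnemius. A change within these intervals was not detectable. Lss, which closes the sterol rings, had -0.05 in the soleus and -0.24 in the gastrocnemius on the log2 scale, the last with 1 library labelled knockout (7) at 1.23 CPM and the others at 3.29 CPM or above.

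Cyp51, which removes the first methyl group of lanosterol, was at 3.91, 5.13, 4.17 and 5.36 CPM in soleus libraries labelled knockout, against 4.70, 2.90, 3.80, 3.71 and 3.47 CPM in controls. The groups overlapped through control 34, and the log2 fold change was 0.33 (95% interval 0.0038 to 0.66, unadjusted p = 0.0478, adjusted p = 0.607). In the gastrocnemius Cyp51 was at 3.36, 4.47, 4.09 and 4.46 CPM in libraries labelled knockout and 4.21, 4.10, 2.80, 3.37 and 3.64 CPM in controls, with a log2 fold change of 0.17 (95% interval -0.16 to 0.50, adjusted p = 0.607). Dhcr7, the reductase that ends one branch of the pathway in cholesterol, was at 8.65, 6.49, 9.88 and 8.96 CPM in gastrocnemius libraries labelled knockout and 7.42, 6.29, 8.32, 6.48 and 7.65 CPM in controls. The groups overlapped through knockout 6, and the log2 fold change was 0.23 (95% interval -0.04 to 0.51, adjusted p = 0.363). Soleus Dhcr7 was at 4.38, 4.37, 5.40 and 4.23 CPM in libraries labelled knockout and 4.10, 4.11, 4.56, 4.52 and 5.07 CPM in controls, with a log2 fold change of 0.05 (95% interval -0.21 to 0.31, adjusted p = 0.958). The remaining genes between lanosterol and cholesterol, the reductase Tm7sf2, the demethylation enzymes Msmo1 and Nsdhl, the isomerase Ebp and the desaturase Sc5d, lay between -0.13 and 0.19 in the soleus and between -0.16 and 0.22 in the gastrocnemius, with 0 of 5 called. Stard4, a carrier of cholesterol between membranes, was at -0.08 in the soleus and 0.02 in the gastrocnemius on the same scale.

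The fatty acid list gave the same counts. In the gastrocnemius 1 of 19 fatty acid genes was called, lower (5.26%, beside 3.78% of all genes tested). Their median log2 fold change was -0.01, with a range of -0.47 to 0.52, and 9 of 19 were above 0. Unadjusted p under 0.05 was reached by Me1, Acly, Acacb and Mid1ip1, and by 3057 of 16393 genes tested. In the soleus 0 of 19 were called by edgeR, DESeq2 and limma voom. Only Me1 of the list had an unadjusted p under 0.05 there, where 1481 of 18087 genes tested did. The soleus median was 0.0033 and the range -0.28 to 0.31.

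Me1 (ENSMUSG00000032418, GRCm38 chromosome 9, 86581371 to 86695953, minus strand) encodes cytosolic malic enzyme, which supplies NADPH for fatty acid synthesis. In the gastrocnemius it stood at 122, 119, 104 and 128 CPM in libraries labelled knockout, against 168, 146, 155, 169 and 180.4 CPM in controls. The highest library labelled knockout lay below the lowest control, and means were 118 ± 10.3 CPM (SD, n = 4) and 164 ± 13.4 CPM (SD, n = 5). Me1 fell in the gastrocnemius with a log2 fold change of -0.47 (SE 0.08, 95% interval -0.64 to -0.30, adjusted p = 0.00598), and it stayed called under all 14 alternatives tried, with adjusted p from 9.63e-06 to 0.0251. Soleus libraries labelled knockout held 35.7, 39.6, 29.3 and 33.1 CPM of Me1, against 38.3, 41.1, 39.4, 41.5 and 41.7 CPM in controls. There 3 of 4 lay below every control and library 39 lay within them, and the log2 fold change was -0.23 (SE 0.08, 95% interval -0.40 to -0.05, adjusted p = 0.477). The difference between the muscles was 0.24 (unadjusted p = 0.0478, adjusted p = 0.916), so a difference of the effects was not called.

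Markers of fibre types and of other cells were read in the same gastrocnemius libraries. Over all 16393 genes tested there, 3.78% were called and 3057 had an unadjusted p under 0.05. The 5 slow fibre markers summed to 325 to 712 CPM in libraries labelled knockout and 703 to 1113 CPM in controls, with 1 of 5 called by edgeR, lower, and 4 of 5 at an unadjusted p under 0.05. The 5 fast fibre markers summed to 117076 to 128525 CPM in libraries labelled knockout and 121945 to 144967 CPM in controls, with 0 of 5 called and 3 at an unadjusted p under 0.05. The 6 macrophage markers summed to 89.0 to 153 CPM in libraries labelled knockout and 72.1 to 99.9 CPM in controls, with 0 of 6 called and 5 at an unadjusted p under 0.05. The 6 fibroblast markers summed to 3458 to 5283 CPM in libraries labelled knockout and 2490.4 to 4378 CPM in controls, with 0 of 6 called and 3 at an unadjusted p under 0.05. Of 10 adipocyte markers 1 was called, higher, the thermogenic gene Ucp1, and 0 of 8 Schwann cell markers were called, with 0 at an unadjusted p under 0.05. The part of these cells in the levels of Me1 and Hsd17b7 was not tested.

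**Figure D3:**
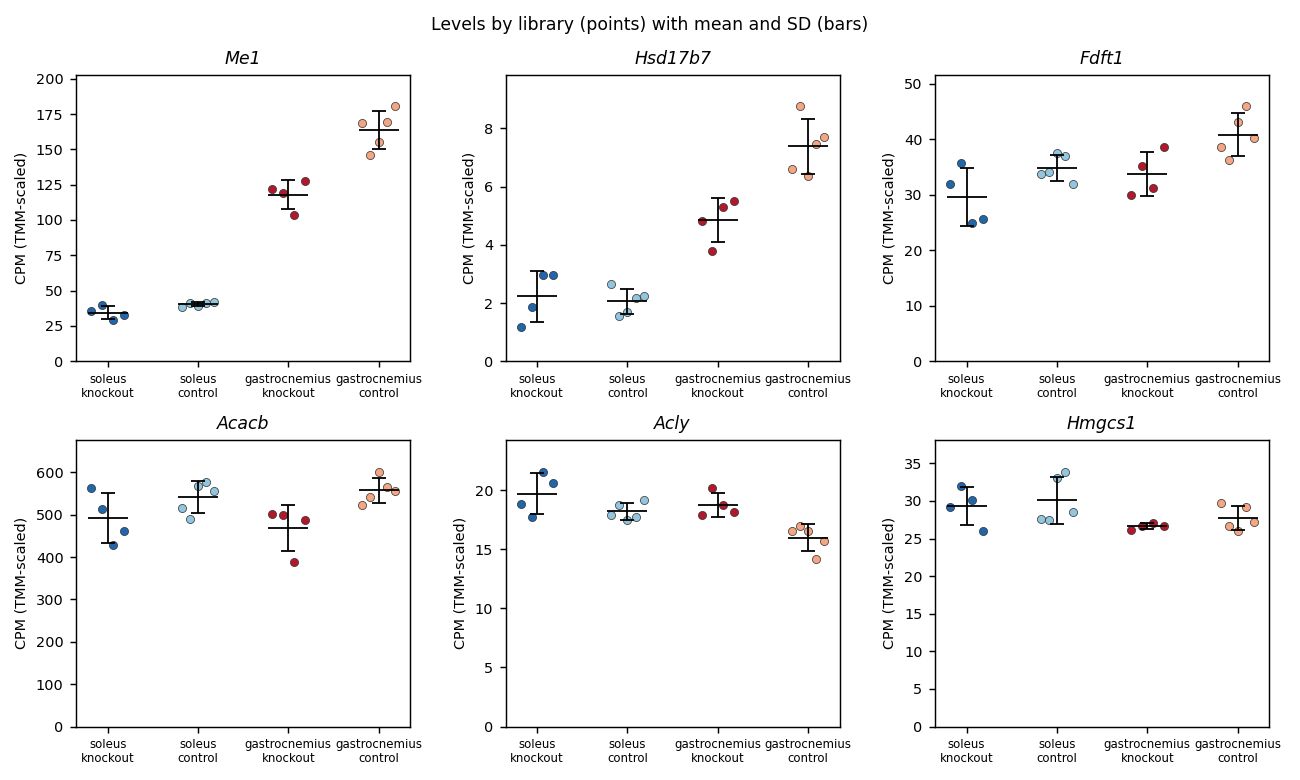
Level in every library (points, CPM) with mean and SD (bars) for selected members in the 4 groups. Me1 and Hsd17b7 lie lower in gastrocnemius libraries labelled knockout than in gastrocnemius controls with no overlap, while those of Hmgcs1 overlap.

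Upstream of malonyl-CoA, ATP citrate lyase (Acly) makes cytosolic acetyl-CoA from citrate. In gastrocnemius libraries labelled knockout Acly was at 17.9, 20.2, 18.8 and 18.2 CPM, against 16.6, 17.0, 16.6, 14.2 and 15.7 CPM in controls. All 4 lay above all 5 controls, yet the log2 fold change of 0.23 (SE 0.08, 95% interval 0.06 to 0.40, adjusted p = 0.125) did not pass the threshold. In the soleus Acly was at 18.9, 17.8, 21.6 and 20.6 CPM in libraries labelled knockout and 17.9, 18.8, 17.5, 17.7 and 19.2 CPM in controls, with overlap and a log2 fold change of 0.12 (95% interval -0.04 to 0.28, adjusted p = 0.737). Acss2, which makes acetyl-CoA from acetate, the citrate carrier Slc25a1 and the acetoacetate-activating enzyme Aacs ranged from -0.07 to 0.21 in the soleus and from -0.02 to 0.07 in the gastrocnemius on the log2 scale, with 0 of 3 called.

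The 2 acetyl-CoA carboxylases make malonyl-CoA. Acacb, the mitochondrial form that dominates in muscle, had 503, 499, 387 and 487 CPM in gastrocnemius libraries labelled knockout, against 523, 541, 602, 565 and 557 CPM in controls. The groups did not overlap, with library 7 far below the other libraries labelled knockout, and the log2 fold change was -0.25 (SE 0.08, 95% interval -0.42 to -0.07, adjusted p = 0.113), not past the threshold. Soleus Acacb was at 563, 513, 428 and 463 CPM in libraries labelled knockout and 516, 490.5, 568, 578 and 556 CPM in controls, overlapping, with a log2 fold change of -0.13 (95% interval -0.32 to 0.05, adjusted p = 0.742). Acaca, the cytosolic form that feeds fatty acid synthase, was at 23.6, 23.9, 18.9 and 22.1 CPM in gastrocnemius libraries labelled knockout and 25.0, 24.3, 23.2, 23.7 and 22.2 CPM in controls. Its soleus levels were 41.7, 51.0, 37.4 and 52.3 CPM in libraries labelled knockout and 53.4, 44.3, 51.1, 49.9 and 44.0 CPM in controls. The groups overlapped in both muscles, and the log2 fold changes were -0.08 (95% interval -0.30 to 0.14, adjusted p = 0.899) and -0.10 (-0.27 to 0.08, adjusted p = 0.586) in soleus and gastrocnemius.

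Fatty acid synthase (Fasn) was at 34.7, 37.2, 32.6 and 41.7 CPM in gastrocnemius libraries labelled knockout, against 52.1, 45.9, 39.3, 33.3 and 34.8 CPM in controls. These groups overlapped, and the log2 fold change was -0.17 (95% interval -0.45 to 0.11, adjusted p = 0.548). In the soleus Fasn was at 23.4, 27.1, 23.4 and 45.9 CPM in libraries labelled knockout and 30.5, 28.5, 28.5, 23.6 and 27.7 CPM in controls. Library 42 stood well above every other soleus library, and without it the log2 fold change of 0.12 (95% interval -0.32 to 0.56, adjusted p = 0.933) became -0.17. The carboxylase activator Mid1ip1 had log2 fold changes of 0.28 in the soleus and -0.41 in the gastrocnemius (adjusted p = 0.217, or 0.042 without knockout 9, at -0.59). Its relative Thrsp had -0.09 in the soleus and 0.20 in the gastrocnemius and was not called.

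Scd1, which makes monounsaturated fatty acids, varied widely between like libraries. In the gastrocnemius it was at 48.0, 62.4, 101 and 46.5 CPM in libraries labelled knockout, against 128, 95.9, 55.5, 43.8 and 68.0 CPM in controls. The coefficient of variation was 39.6% in libraries labelled knockout and 43.2% in controls, the groups overlapped, and the interval of the log2 fold change of -0.28 ran from -1.16 to 0.61 (adjusted p = 0.775). In the soleus Scd1 was at 83.9, 87.8, 70.3 and 46.7 CPM in libraries labelled knockout and 97.3, 110.3, 91.5, 55.7 and 83.5 CPM in controls, with a log2 fold change of -0.28 (95% interval -0.79 to 0.24, adjusted p = 0.824). Scd1 is highly expressed in adipocytes. Summed adipocyte markers ran from 146 to 205 CPM in gastrocnemius libraries labelled knockout and 147 to 236 CPM in controls. In the soleus they ran from 179 to 214 CPM in libraries labelled knockout and 189.5 to 323 CPM in controls. Adipocyte RNA as a source of the Scd1 values was not tested. The desaturases Scd2, Fads1 and Fads2 and the elongases Elovl5 and Elovl6 ran from -0.08 to 0.30 in the soleus and from -0.14 to 0.20 in the gastrocnemius, with 0 of 5 called. The acyltransferases Gpam and Agpat2 and the lipase Pnpla3 ran from -0.03 to 0.31 in the soleus and from 0.03 to 0.52 in the gastrocnemius, with 0 of 3 called.

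**Figure D4:**
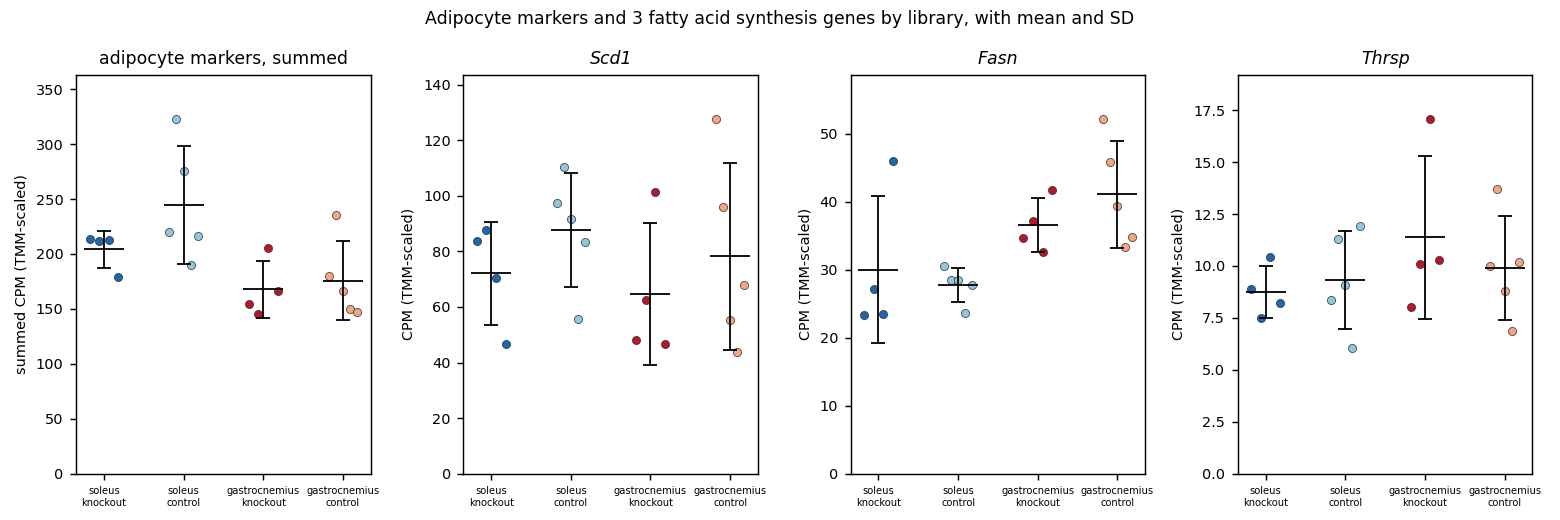
Summed adipocyte markers and levels of lipogenic genes that adipocytes also express, per library (points, CPM) with mean and SD (bars). The adipocyte sum overlaps between libraries labelled knockout and controls in both muscles (146 to 205 and 147 to 236 CPM in the gastrocnemius).

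Summed over the 19 fatty acid genes, levels were 929.6 to 1029.7 CPM in gastrocnemius libraries labelled knockout and 1103 to 1162 CPM in controls, without overlap. Most of the gastrocnemius sum is Acacb and Me1, as the per-library values above show. The mean sum was 995 CPM in gastrocnemius libraries labelled knockout and 1139 CPM in controls. Acacb, which was not called, had means of 469 and 558 CPM, and Me1 had 118 and 164 CPM. The gap between the sums thus lies mostly in Acacb and Me1 and does not describe the list as a whole. In the soleus the sum was 955 to 1129 CPM in libraries labelled knockout and 1088 to 1221 CPM in controls. The 19 sterol genes summed to 135 to 154 CPM in gastrocnemius libraries labelled knockout and 146 to 165 CPM in controls, and to 130.2 to 144 CPM in soleus libraries labelled knockout and 131 to 152 CPM in soleus controls, overlapping in both muscles.

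The difference of the knockout effects between the muscles was tested for each member. It was called for 0 of 38 by edgeR, DESeq2 and limma voom, where 0.0703% of 18494 genes tested were called by edgeR (0.0595% higher, 0.0108% lower). Unadjusted p was under 0.05 for 4 members, Idi1, Hsd17b7, Me1 and Mid1ip1 (0.69, unadjusted p = 0.0419), and for 999 of 18494 genes tested. All 4 members were higher in soleus effect than in gastrocnemius effect.

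Of 7 genes that control the SREBPs, 0 were called by edgeR in the soleus, with 0 at an unadjusted p under 0.05, and 1 in the gastrocnemius, Srebf1, which encodes SREBP1. Over all genes tested, edgeR called 0.0553% in the soleus and 3.78% in the gastrocnemius. Gastrocnemius libraries labelled knockout had 29.2, 32.0, 28.3 and 38.9 CPM of Srebf1, against 41.1, 41.5, 56.7, 51.7 and 51.6 CPM in controls. All 4 lay below all 5 controls, and Srebf1 fell with a log2 fold change of -0.59 (SE 0.12, 95% interval -0.85 to -0.34, adjusted p = 0.0182). The call was lost without control 5 (adjusted p = 0.0519), knockout 6 (0.0636) or knockout 7 (0.0518). In the soleus Srebf1 was at 26.6, 29.1, 28.5 and 34.0 CPM in libraries labelled knockout and 26.2, 26.2, 26.8, 26.1 and 31.3 CPM in controls, overlapping, with a log2 fold change of 0.12 (95% interval -0.06 to 0.31, adjusted p = 0.775). The difference of the effects was 0.71 (adjusted p = 0.0982, but 0.00920 with DESeq2). Srebf1 shares 109 exon bases with the opposite-strand gene Rai1, whose mean count was 160% of its own. Insig1, which holds SCAP in the endoplasmic reticulum and is itself an SREBP target, had 0.08 in the soleus and -0.35 in the gastrocnemius (adjusted p = 0.0888, or 0.0338 with DESeq2). Of 8 genes of the liver X receptor and carbohydrate response branch, 0 were called by edgeR in either muscle. Unadjusted p under 0.05 was reached there by 0 of 8 in the soleus and by 3 of 8 in the gastrocnemius. Over all genes tested it was reached by 1481 of 18087 in the soleus and 3057 of 16393 in the gastrocnemius.

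The muscles were then compared with each other, soleus over gastrocnemius, in the libraries of control mice and of mice labelled knockout. The title numbers of the muscles form separate blocks (34 to 42 and 1 to 9), so any order of preparation that followed them and the muscle cannot be told apart. Among control mice 8 of 19 sterol genes were called (42.1%), 2 higher and 6 lower in the soleus, and 12 of 19 fatty acid genes (63.2%), 6 higher and 6 lower. Over all 18494 genes tested 49.3% were called, 27.4% higher and 21.9% lower; the sterol share lay below that and the fatty acid share above it, and neither gap was tested. Among mice labelled knockout 5 of 19 sterol genes (26.3%) and 10 of 19 fatty acid genes (52.6%) were called, where 37.8% of all genes tested were (19.2% higher, 18.5% lower). The same members were higher in the soleus in both for 6 genes (Mvd, Acss2, Acaca, Agpat2, Gpam and Elovl5) and lower in both for 7 (Me1, Hsd17b7, Sc5d, Dhcr7, Fdps, Scd2 and Fads1). These 13 are 13 of 20 called in control mice and 13 of 15 called in mice labelled knockout. The same share over all genes tested was not computed, so these counts are not read as particular to the members.

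**Figure D5:**
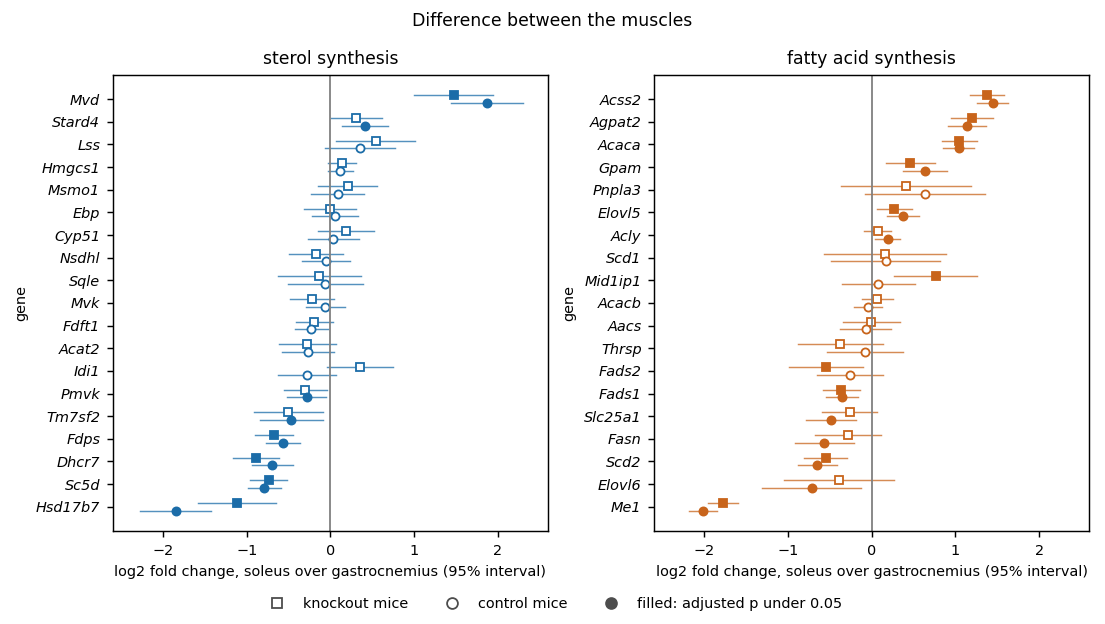
Log2 fold change of each member, soleus over gastrocnemius, with its 95% interval, in mice labelled knockout and in control mice. Mvd and Acss2 lie highest and Me1 and Hsd17b7 lowest in both, and the supply genes Acss2 (acetyl-CoA) and Me1 (NADPH) lie on opposite sides of 0.

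Mvd (ENSMUSG00000006517, GRCm38 chromosome 8, 122433596 to 122443422, minus strand), the decarboxylase that makes isopentenyl diphosphate, rose most in the soleus. Control soleus held 17.6, 9.02, 15.2, 13.0 and 7.32 CPM of Mvd, against 3.44, 3.45, 3.69, 3.51 and 2.95 CPM in control gastrocnemius. Every soleus library lay above every gastrocnemius library, with a wide spread within the soleus, and the log2 fold change was 1.87 (SE 0.21, 95% interval 1.43 to 2.30, adjusted p = 4.94e-07). In mice labelled knockout it was 1.47 (SE 0.23, adjusted p = 4.17e-05), with 12.9, 11.4, 9.70 and 14.1 CPM in the soleus and 3.22, 3.98, 4.41 and 5.68 CPM in the gastrocnemius. Stard4 also rose in control soleus, with 4.15, 4.08, 4.20, 4.34 and 4.59 CPM against 3.74, 2.73, 3.25, 3.29 and 2.97 CPM in control gastrocnemius and a log2 fold change of 0.42 (adjusted p = 0.0123). In mice labelled knockout Stard4 was at 0.31 and not called (adjusted p = 0.104).

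Hsd17b7 was lower in the soleus by the widest margin of the sterol list. Its levels, 2.64, 1.54, 1.70, 2.17 and 2.24 CPM in control soleus and 6.60, 8.75, 6.37, 7.46 and 7.71 CPM in control gastrocnemius, did not overlap, and the log2 fold change was -1.85 (SE 0.20, 95% interval -2.27 to -1.43, adjusted p = 1.42e-07). Sc5d, which places a double bond late in the pathway, was at 9.48, 9.47, 10.2, 9.46 and 10.01 CPM in control soleus, against 16.4, 15.1, 14.9, 17.8 and 19.8 CPM in control gastrocnemius. No soleus library reached the gastrocnemius range, and the log2 fold change was -0.79 (SE 0.10, 95% interval -0.99 to -0.59, adjusted p = 5.32e-07). Dhcr7, which acts on the product of Sc5d, likewise did not overlap between the muscles (values above), with a log2 fold change of -0.69 (SE 0.12, 95% interval -0.94 to -0.45, adjusted p = 4.45e-05). In mice labelled knockout these 3 were at -1.12, -0.74 and -0.89 and were called too, with adjusted p from 1.01e-05 to 0.000480.

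Fdps, Tm7sf2 and Pmvk completed the sterol genes lower in control soleus, at -0.57, -0.47 and -0.28. Pmvk, a kinase of the mevalonate arm, was at 6.09, 5.21, 5.70, 5.92 and 4.42 CPM in control soleus and 6.58, 6.80, 7.20, 6.91 and 5.86 CPM in control gastrocnemius. Its groups overlapped slightly, and its call (adjusted p = 0.0401) was lost without any of 7 single libraries and without the filter on low counts. The call of Tm7sf2 (adjusted p = 0.0362) was lost without gastrocnemius control 1, where it fell by 0.31 (adjusted p = 0.16), without soleus controls 34, 37 or 38, and without the filter. Vps51 overlaps Tm7sf2 with more reads, and its part in these values was not tested. Acat2, Hmgcs1, Mvk, Idi1, Fdft1, Sqle, Lss, Cyp51, Msmo1, Nsdhl and Ebp were not called between the muscles of control mice, with log2 fold changes of -0.28 to 0.35. Of these Fdft1 (-0.23) was called lower with DESeq2 (adjusted p = 0.0292), with RLE factors (0.0280), in a fit of the control libraries alone (0.00525) and without gastrocnemius control 3 (0.0312).

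Among fatty acid genes, Me1, which supplies NADPH, and Acss2, which supplies acetyl-CoA, differed between the muscles in opposite directions. Me1 was lower in the soleus than in the gastrocnemius, with levels given above that did not come near each other in either genotype. Its log2 fold change was -2.02 (SE 0.08, 95% interval -2.18 to -1.85, adjusted p = 1.07e-14) in control mice and -1.78 (adjusted p = 1.28e-12) in mice labelled knockout. Acss2 (ENSMUSG00000027605, GRCm38 chromosome 2, 155517948 to 155585724, plus strand) was at 64.9, 57.4, 68.8, 70.7 and 62.4 CPM in control soleus, against 25.0, 21.7, 23.6, 24.6 and 24.3 CPM in control gastrocnemius. The soleus and gastrocnemius libraries lay far apart, and the log2 fold change was 1.44 (SE 0.09, 95% interval 1.26 to 1.62, adjusted p = 8.82e-12). Mice labelled knockout showed 57.1, 67.5, 52.5 and 68.6 CPM in the soleus and 24.6, 23.2, 19.7 and 26.8 CPM in the gastrocnemius, at 1.38 (adjusted p = 2.36e-10). Gss shares exon positions with Acss2, and its part in these values was not tested.

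Acaca was higher in the soleus, at 1.04 (SE 0.09, 95% interval 0.85 to 1.22, adjusted p = 3.04e-09) on the log2 scale in control mice and 1.04 (adjusted p = 3.01e-08) in mice labelled knockout, with no overlap in either. Its muscle-type relative Acacb was not called, at -0.04 (95% interval -0.21 to 0.13, adjusted p = 0.700) in control mice. Fasn, one step on from Acaca, was lower in control soleus, with no overlap and a log2 fold change of -0.57 (SE 0.17, 95% interval -0.92 to -0.21, adjusted p = 0.0103). Among mice labelled knockout Fasn was at -0.29 (adjusted p = 0.250), and at -0.57 (adjusted p = 0.00206) without soleus library 42.

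Agpat2, which adds the second acyl chain in glycerolipid synthesis, was at 11.8, 10.5, 12.7, 9.05 and 10.8 CPM in control soleus and 5.08, 5.41, 5.69, 4.20 and 4.52 CPM in control gastrocnemius. The ranges did not overlap, and the log2 fold change was 1.14 (SE 0.11, 95% interval 0.92 to 1.37, adjusted p = 1.45e-08). Egfl7 overlaps Agpat2 with more reads, and its part in these values was not tested. In mice labelled knockout Agpat2 was at 12.0, 11.5, 10.04 and 13.0 CPM in the soleus and 5.04, 5.20, 4.41 and 5.60 CPM in the gastrocnemius (1.20, adjusted p = 6.90e-08). Gpam, the step before, was at 0.64 in control mice and 0.46 in mice labelled knockout, and Elovl5 at 0.37 in control mice and 0.27 in mice labelled knockout. In mice labelled knockout the call of Elovl5 (adjusted p = 0.0413) was lost without the filter (0.0631), in a fit of those libraries alone (0.0525) and without gastrocnemius knockouts 2, 6 or 9 or soleus knockouts 35, 39 or 40 (0.0556 to 0.133), and that of Gpam without soleus knockout 39 (0.0524). Acly rose little, at 0.19 (adjusted p = 0.0292), and its call was lost with DESeq2 (0.0713), RLE factors (0.0802), no filter (0.0586) and the control libraries alone (0.0802), and without gastrocnemius controls 5 (0.0939) or 8 (0.0559) or soleus controls 36 (0.0553) or 41 (0.0652).

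Scd2, a desaturase best known from brain and developing tissue in mouse, was at 18.3, 16.6, 20.9, 21.7 and 17.7 CPM in control soleus and 34.8, 33.3, 28.0, 25.5 and 27.6 CPM in control gastrocnemius. The soleus libraries all lay lower, with a log2 fold change of -0.65 (SE 0.11, 95% interval -0.88 to -0.42, adjusted p = 5.00e-05). Scd1, its neighbour on chromosome 19, was at 0.17 (95% interval -0.49 to 0.82) and was not called. Elovl6, which lengthens palmitate, was at 1.00, 0.499, 1.12, 1.12 and 0.510 CPM in control soleus and 1.89, 1.69, 1.18, 0.823 and 1.401 CPM in control gastrocnemius. These groups overlapped, and the call of -0.72 (adjusted p = 0.0410) was lost without any of 5 single libraries, with adjusted p from 0.0629 to 0.121. Slc25a1 and Fads1 were lower as well, at -0.48 and -0.36. In mice labelled knockout Mid1ip1 was called higher in the soleus (0.76, adjusted p = 0.0163) and Fads2 lower (-0.54, adjusted p = 0.0491). Without soleus library 42 the value of Mid1ip1 was 0.47 (adjusted p = 0.0605), and its call was also lost without gastrocnemius library 7 (0.0612) and in a fit of the libraries labelled knockout alone (0.0852). The call of Fads2 was lost in that fit (0.0816), without the filter (0.0650) and without gastrocnemius knockouts 6, 7 or 9 or soleus knockouts 35, 39 or 40 (0.0583 to 0.156).

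Regulators and cell markers also differed between the muscles of control mice. Over all 18494 genes tested there, 27.4% were called higher and 21.9% lower in the soleus. In mice labelled knockout fewer genes were called, 6987 against 9122 in control mice, with 18.5% lower. Of 7 SREBP regulators 5 were lower in the soleus of control mice, Srebf1 (-0.83), Insig1 (-0.39), Srebf2 (-0.28), Mbtps2 (-0.26) and Insig2 (-0.21), and 1 of 7, Srebf2 (-0.31), in mice labelled knockout. Of 8 genes of the liver X receptor and carbohydrate response branch 1 was higher in the soleus of control mice, Mlxipl, which encodes the carbohydrate response factor ChREBP (0.81, adjusted p = 7.19e-06). There 3 were lower, Lpin1 (-0.56), Nr1h2 (-0.29) and Nr1h3 (-0.25). Schwann cell markers summed to 73.9 to 264 CPM in control soleus and 236 to 409 CPM in control gastrocnemius, with 4 of 8 called lower, and fibroblast markers were lower for 4 of 6. Endothelial markers were higher for 5 of 5, and adipocyte markers higher for 2 and lower for 1 of 10. The part of these cells in the muscle differences of the members was not tested.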

How the data were processed

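The authors deposited, for each of 18 libraries, read counts per Ensembl gene with CPM and RPKM beside them. The submitters' processing notes name the build GRCm38 and the tools STAR 2.5.1a, featureCounts 1.4.6-p5, Subread and bcl2fastq; the annotation release, strand setting and handling of multi-mapped reads were not stated. The deposited CPM equalled counts over the library total to within 4.9e-10, and the deposited RPKM the same per kilobase to within 4.1e-10. Symbols came from a GRCm38 annotation for 40254 of 41388 features (97.3%), and 0 lines named no gene. Groups follow the titles (5 control and 4 knockout libraries per muscle; the series text states 4 per group).

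Counts were fitted with edgeR 4.0.16 in R 4.3.3 (TMM, filterByExpr with minimum count 10 and minimum total 15, robust quasi-likelihood F-test, Benjamini-Hochberg adjustment over all genes tested, threshold 0.05). Each knockout comparison used the 9 libraries of its muscle; comparisons between muscles and the difference of knockout effects used all 18 in 4 groups. Every adjusted p is from that test unless another tool is named. SE and 95% intervals come from the same fits, and levels are CPM on TMM-scaled totals over all 18 libraries. Totals ran from 39.0 to 78.2 M counts, and intervals from counts hold reads that are not independent molecules. The code was tested on simulated data, with 100 genes changed by 0.5 and 100 by 1 on the log2 scale. Of those changed by 0.5 it called 15 in the soleus knockout comparison, 36 in the gastrocnemius and 13 in the difference of effects. Of those changed by 1 it called 67, 68 and 41. Unchanged genes made up 8.89%, 7.96% and 5.26% of its calls. Counts of 0 called therefore do not show that small changes are absent. Alternatives were DESeq2 1.42.0, limma 3.58.1 voom or trend, RLE factors, no filter on low counts, other sets of fitted libraries, leaving out each library and, chosen after seeing the data, a block of libraries with matching title numbers. Members and lists were chosen with earlier results of these data known. Per-library values are given for members called in a knockout comparison, for 11 pathway steps, and for the 3 highest and 3 lowest called between muscles in each list; the others are given by range. Genes with close copies, such as Acat2, Fdps, Idi1, Scd1 and Scd2, are uncertain where counting split reads.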

Additional observations from a re-analysis of the deposited data

Results flagged for a closer look

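Each member's 4 groups were searched for a library far from the rest of its group, and 9 of 152 groups held one; chance alone gives about 1 in 20, so this number is near what chance gives. In soleus libraries labelled knockout, Fasn was high in library 42, at 45.9 CPM with the next at 27.1, and Dhcr7 was high in library 40, at 5.40 CPM with the next at 4.38. In gastrocnemius libraries labelled knockout, library 7 was low for Acacb, at 387 CPM with the next at 487, and for Lss, at 1.23 CPM with the next at 3.29, and library 2 was high for Pnpla3, at 4.67 CPM with the next at 1.97. In soleus controls, Gpam was high in library 41, at 289.8 CPM with the next at 200.3, and Slc25a1 in library 36, at 3.20 CPM with the next at 2.80. In gastrocnemius controls, Mvk was low in library 3, at 5.38 CPM with the next at 7.33, and Tm7sf2 was high in library 1, at 4.30 CPM with the next at 3.00.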

How the results depend on the processing

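The count of sterol genes called in the gastrocnemius knockout comparison was 0 in a fit of all 18 libraries, against 1 in the fit of that muscle alone, and 0 to 1 with single libraries left out; the cause was not tested. With single libraries left out, fatty acid genes called there numbered 1 to 2, in the soleus 0 of either list, and in the difference of effects 0. Between the muscles of control mice the range was 6 to 8 sterol and 10 to 12 fatty acid genes, and of mice labelled knockout 5 to 8 and 7 to 10. The other counts of members stayed within 1.5 times under DESeq2, limma, RLE factors, no filter and other sets of fitted libraries, and no called gene changed sign. The order of levels was the same for 148 of 152 ranks with the deposited RPKM. Over all genes, the gastrocnemius count of 619 was 1235 with DESeq2 and 206 to 1080 with single libraries left out, moving by over 1.5 times without any library other than control 3. The soleus count of 10 was 166 with DESeq2, 48 without the filter, 28 in the fit of all libraries and 3 to 66 with single libraries left out. No title number repeats between groups, but gastrocnemius numbers and soleus numbers 33 higher carry the same genotype in all 9 cases; no label says that such libraries share a mouse, and the comparisons above treat them as separate. Deviations from the group means correlated at 0.0466 to 0.299 within these 9 pairs, over 0.1 in 4, and each gastrocnemius library correlated best with its own partner within its genotype in 9 of 9, a hint from the data and not the design. With these pairs as a replicate block, an alternative chosen after seeing the data, 9 sterol and 12 fatty acid genes were called between the muscles of control mice (Fdft1 and Pnpla3 gained, Elovl6 lost), 8 and 12 of mice labelled knockout (Pmvk, Lss, Tm7sf2, Fasn and Thrsp gained), and 0 of either list in the difference of effects, where Srebf1 was called (0.71, adjusted p = 0.00853). Counts were lowest for Elovl6, Idi1 and Sqle, at means of 58.9, 77.0 and 98.4 per library.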
